A study of Mus musculus with 2 samples.

Results

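The genes described here are 37 genes of glucose use and of the response to low oxygen, chosen by name for their known roles and followed through every probe set that the array annotation gives to 1 of them alone. A probe set is a group of short probes against 1 transcript. There were 75 such probe sets for 34 of the 37 genes, out of 18193 genes named on the array. Eno1 and Gpi1 had no probe set named for them here, and those of Bnip3l were annotated to its pseudogene as well. All 34 genes were measured, meaning that their brightest probe set exceeded a signal of 31.7 on at least 1 array. That floor is the median of all probe sets on both arrays. 66 of the 75 probe sets exceeded it on at least 1 array, and 9 did not on either.

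The cells were primary osteoblasts, the bone-forming cells, isolated from calvarial bones, which form the roof of the skull, of CD1 mice aged 7 days. Both cultures were starved of serum for 24 h. The control culture then received the vehicle DMSO for 24 h, and the treated culture 2 µM PP1, an inhibitor of c-Src and related tyrosine kinases, for 24 h. Each group is 1 culture on 1 array, how many animals were pooled is not stated in the sources used here, and the labels name no low-oxygen treatment for either culture. There is no replicate, so the groups could not be tested against each other, and each comparison describes these 2 arrays.

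Glycolysis turns glucose into pyruvate in the cytosol, and lactate dehydrogenase can turn the pyruvate into lactate for export. Osteoblasts are known as strongly glycolytic cells even where oxygen is present. The hypoxia-inducible factor HIF is kept low by prolyl hydroxylases (the Egln genes) when oxygen is present. When it accumulates it raises transcription of many glycolytic genes, and of genes for blood flow, pH control and mitochondrial turnover.

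With PP1, the genes for glucose entry, Slc2a1 and Hk2, for monocarboxylate transport, Slc16a1, and for oxygen sensing, Egln1, had the lowest log2 ratios of the group, from -1.30 to -0.71. The pyruvate dehydrogenase kinase Pdk2, the enolase Eno2, the vasodilator peptide Adm and the phosphofructokinase Pfkm had the highest, from 0.71 to 1.23, though Pfkm was not above 0 under every scaling. Most other listed genes of the main glycolytic chain lay close to 0. Gapdh, which is not among the 34 and has no gene-level value, was higher by its control probe sets (0.35 to 0.86). The other HIF targets did not go one way: 5 of their 7 measured genes were below 0 and Adm was more than 2-fold higher. Of all 12111 measured genes, 5936 were below 0.

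In counts, 4 of 34 genes were higher with PP1 by 1.5-fold or more (11.8%, against a background of 10.6% of the 12111 measured genes) and 4 were at least 1.5-fold lower (11.8%, against 7.37%). At 2-fold, 3 were higher (8.82%, against 2.97%) and 1 was lower (2.94%, against 1.55%). At 1.5-fold the higher count was close to its background. All these counts are after the PP1 array had been multiplied by 1.68 to give both arrays the same trimmed mean, so each direction is relative to the bulk of genes. With the values as deposited, 0 were past 1.5-fold higher and 23 lower. Centred on the array medians, 3 were higher and 10 lower, and scaled to bacterial control probe sets, 0 were higher and 24 lower. These 3 settings shifted the median log2 ratio of all measured genes by -0.71, -0.17 and -0.80. Under them, in the same order, 2877 of 12291, 351 of 12100 and 3774 of 12351 measured genes were at least 2-fold lower. At least 2-fold higher were 50, 223 and 35. The shares of all genes past 1.5-fold were not counted under these settings. In the main setting, the median log2 ratio over all 34 genes was -0.08, against 0.01 for all measured genes. Of the 34, 14 were above 0 and 20 below, and of all measured genes 6175 were above 0 and 5936 below. The only error these arrays offer is the spread between probe sets of a gene, an SD of 0.41 on the log2 scale over 4745 genes, which covers probe sets and not cultures. In RNA from a whole culture, fewer cells of a type and less RNA per cell cannot be told apart.

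**Figure D1:**
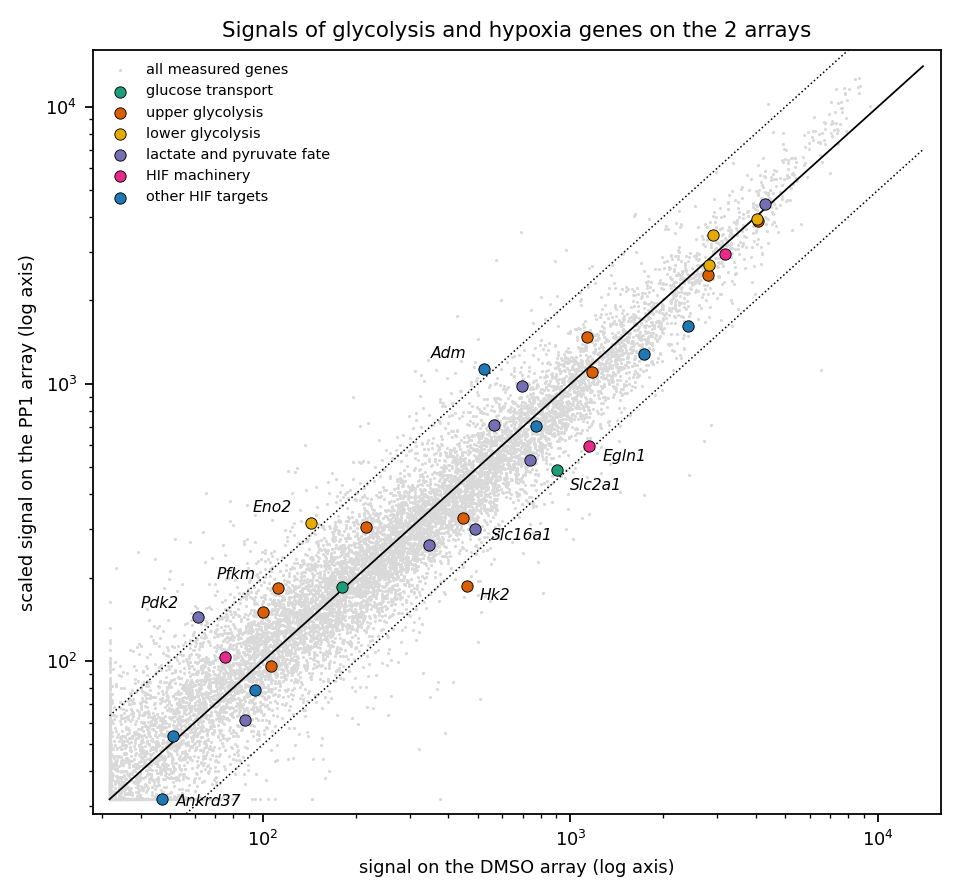
Signal of each gene by its brightest probe set on the DMSO array (x axis) and scaled signal on the PP1 array (y axis), both on log axes, with the 34 genes coloured by role and all 12111 measured genes in grey; the solid line marks equal signals, the dotted lines 2-fold, and values under the floor of 31.7 are drawn at it. Hk2 lies under the lower dotted line, Pdk2, Eno2 and Adm lie above the upper, and the 8 coloured genes with a mean signal above 1600 lie between the dotted lines.

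The sequences shown are the promoters of the 3 genes with the lowest and the 3 with the highest log2 ratios, because HIF binds short elements with the core letters ACGTG or GCGTG and many of these genes are known HIF targets. Each sequence is the 250 bases before a transcript start in the RefSeq promoter table, build GRCm38.p6, read 5′ to 3′ on the gene's strand. Capitals mark ACGTG and GCGTG and their reverse complements CACGT and CACGC, and CACGTG counts on both strands. Slc2a1 is at chr4:119108495-119108744 on the plus strand. Hk2 is at chr6:82774455-82774704 on the minus strand. Egln1 is at chr8:124949255-124949504 on the minus strand. Eno2 is at chr6:124769674-124769923 on the minus strand. Adm is at chr7:110627407-110627656 on the plus strand. Pdk2 has 2 listed starts on the minus strand, with windows at chr11:95041372-95041621 (start A) and chr11:95040876-95041125 (start B).
Hk2: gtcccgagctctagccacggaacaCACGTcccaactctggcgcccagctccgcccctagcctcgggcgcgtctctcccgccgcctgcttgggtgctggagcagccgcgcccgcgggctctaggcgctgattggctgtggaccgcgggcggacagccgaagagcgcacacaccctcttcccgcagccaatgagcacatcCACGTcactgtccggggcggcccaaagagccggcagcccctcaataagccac
Egln1: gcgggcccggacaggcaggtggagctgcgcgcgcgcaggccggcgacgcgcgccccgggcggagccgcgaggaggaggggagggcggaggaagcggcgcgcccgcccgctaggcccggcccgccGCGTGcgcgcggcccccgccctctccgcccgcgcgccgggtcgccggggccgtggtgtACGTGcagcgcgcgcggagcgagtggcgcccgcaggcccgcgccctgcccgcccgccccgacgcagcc
Slc2a1: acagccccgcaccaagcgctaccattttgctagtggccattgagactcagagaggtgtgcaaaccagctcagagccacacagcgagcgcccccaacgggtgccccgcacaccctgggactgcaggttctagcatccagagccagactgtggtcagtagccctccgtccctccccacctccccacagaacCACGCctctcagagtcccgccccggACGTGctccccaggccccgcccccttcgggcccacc
Adm: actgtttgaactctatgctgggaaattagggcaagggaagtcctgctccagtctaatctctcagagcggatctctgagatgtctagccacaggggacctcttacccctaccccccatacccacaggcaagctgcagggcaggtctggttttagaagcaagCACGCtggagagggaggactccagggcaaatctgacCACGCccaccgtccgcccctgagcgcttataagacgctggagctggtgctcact
Eno2: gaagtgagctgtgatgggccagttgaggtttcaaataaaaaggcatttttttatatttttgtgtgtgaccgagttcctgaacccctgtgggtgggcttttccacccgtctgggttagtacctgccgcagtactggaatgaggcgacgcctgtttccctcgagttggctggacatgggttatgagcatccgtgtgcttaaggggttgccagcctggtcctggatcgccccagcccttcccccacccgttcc
Pdk2 start A: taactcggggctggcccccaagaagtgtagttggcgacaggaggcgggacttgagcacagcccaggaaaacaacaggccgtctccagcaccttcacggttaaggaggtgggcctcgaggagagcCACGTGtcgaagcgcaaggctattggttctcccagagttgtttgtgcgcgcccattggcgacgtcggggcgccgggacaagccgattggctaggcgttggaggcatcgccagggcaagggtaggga
Pdk2 start B: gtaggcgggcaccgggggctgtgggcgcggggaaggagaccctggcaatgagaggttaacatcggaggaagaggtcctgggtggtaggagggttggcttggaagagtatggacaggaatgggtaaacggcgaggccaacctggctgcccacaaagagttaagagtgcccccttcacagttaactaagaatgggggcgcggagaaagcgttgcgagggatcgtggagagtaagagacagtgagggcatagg

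The Hk2 window held CACGT beginning 226 and 52 bases before the start, the Egln1 window GCGTG at 126 and ACGTG at 68, and the Slc2a1 window CACGC at 61 and ACGTG at 36. The Adm window held CACGC at 90 and 54, and start A of Pdk2 a CACGTG beginning at 126. The Eno2 window and start B of Pdk2 held neither core. A match is a description of letters and not a binding site. Of the 34 genes, 32 had at least 1 window in the table, and Slc2a3 and Ndrg1 had none. ACGTG, on either strand, occurred for 19 of the 32 (59.4%), against 25.0% of the 9780 measured genes with a window. GCGTG occurred for 20 of the 32 (62.5%), against 49.6%. Counted by window, 22 of 44 held ACGTG, against 21.2% of the windows of measured genes and 16.6% of the 32851 windows in the table. For GCGTG it was 22 of 44, against 43.7% and 28.2%. ACGTG occurred for all 4 genes that were at least 1.5-fold lower and for 2 of the 4 that were at least 1.5-fold higher, Pdk2 and Pfkm. GCGTG occurred for 3 of the 4 lower and 2 of the 4 higher genes, and either core for 4 and 3. Either core occurred for 29 of the 32 genes here and for 60.8% of the measured genes with a window. The 4 lower genes had 4 windows and the 4 higher genes 8. By window, ACGTG was in 4 of the 4 and in 3 of the 8. With 4 genes each way, the difference was not tested.

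Glucose enters these cells through facilitative transporters. Slc2a1 encodes GLUT1, the widely expressed basal transporter, and its brightest probe set gave a signal of 903 with DMSO and 488 with PP1. Its other probe sets gave 576.5 against 263 and 366 against 174.8. All 3 were lower with PP1, with log2 ratios from -1.13 to -0.89, or 1.85-fold lower by the brightest. Only 289 of the 12111 measured genes had a lower ratio. Slc2a3, the high-affinity transporter GLUT3, gave 180.8 and 184.8 by its brightest probe set, a log2 ratio of 0.03. Its second probe set above the floor was at -0.22, and both carry array names that mark them as shared between transcripts or with other sequences.

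Hexokinases trap glucose by phosphorylation. Hk2, the inducible mitochondria-bound form, gave a signal of 459.5 with DMSO and 186 with PP1, which is 2.47-fold lower. It rested on 1 probe set, and 80 measured genes had a lower ratio. Hk1, the constitutive form, was at -0.08 by its brightest probe set, with signals of 1171 and 1105, and at 0.76 by a dimmer probe set with 139 and 235.6. By the brightest probe sets, the ratio of Hk2 exceeded the probe set SD of 0.41 and that of Hk1 did not.

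The phosphofructokinase subunits, which carry out the committed step, were split. The muscle-type Pfkm stood at 112 against 184 (1.64-fold higher, 1 probe set). With the floor at the 75th percentile its log2 ratio was 0.19, which ends the 1.5-fold difference, and with the values as deposited it was -0.04. The liver-type Pfkl was higher by all 3 probe sets, with log2 ratios from 0.39 to 0.69 and signals of 1129 and 1481 by the brightest. The platelet-type Pfkp was lower by both probe sets above the floor (-0.45 and -0.23), from 447.6 to 329. The enzymes that set the level of the activator fructose 2,6-bisphosphate, Pfkfb3 and Pfkfb4, were at 0.50 and 0.58, with Pfkfb3 at 216 and 304 and Pfkfb4 at 100.4 and 150.0. Pfkfb4 lay just under 1.5-fold, at 1.49-fold. Skeletal muscle markers were also higher on the PP1 array in 3 of their 4 measured genes, from dim signals: Des was at 39.4 and 105.9, Myog at 23.7 and 81.8, and Myod1 at 31.6 and 49.4, while Acta1 was at 521 and 426 and Ckm was under the floor on both. The summed marker signal was 641 and 691, and its part in the Pfkm value was not tested.

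Apart from Eno2, the listed genes of the middle and lower chain lay near the bulk of genes by the brightest probe sets. The aldolase Aldoa stood at 4058 with DMSO and 3856 with PP1, triose phosphate isomerase Tpi1 at 2790 and 2476, phosphoglycerate kinase Pgk1 at 4031 and 3932, and phosphoglycerate mutase Pgam1 at 2821 and 2674. Their log2 ratios ran from -0.17 to -0.04. The pyruvate kinase Pkm, which makes pyruvate and ATP, was at 0.24, with 2912 and 3442. Aldoc, the brain-type aldolase, was at -0.14 from signals of 106 and 96.3. Not every probe set of these genes lay so near 0. The 5 of Aldoa ran from -0.84 to 0.40, and the dimmest probe set of Pgk1 gave 1480 and 505, a log2 ratio of -1.55. All 5 of Aldoa, and that of Pgk1, have names that mark probes shared with other sequences. So do the second brightest of Pgk1 (-0.12) and the brightest of Tpi1. These ratios may therefore not report those genes alone. The 3 probe sets of Tpi1 ran only from -0.30 to -0.17.

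Eno2, the neuron-type enolase, was the exception among the listed genes of the lower chain. Its 1 probe set gave 143 with DMSO and 314 with PP1, which is 2.20-fold higher. Eno1, the widely expressed enolase, has no value here. Gapdh, which acts between aldolase and Pgk1, was not listed and has no gene-level value. Its 3 control probe sets, described further below, stood from 0.35 to 0.86. Dim probe sets shared with a pseudogene stood at -0.83 and -0.17.

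**Figure D2:**
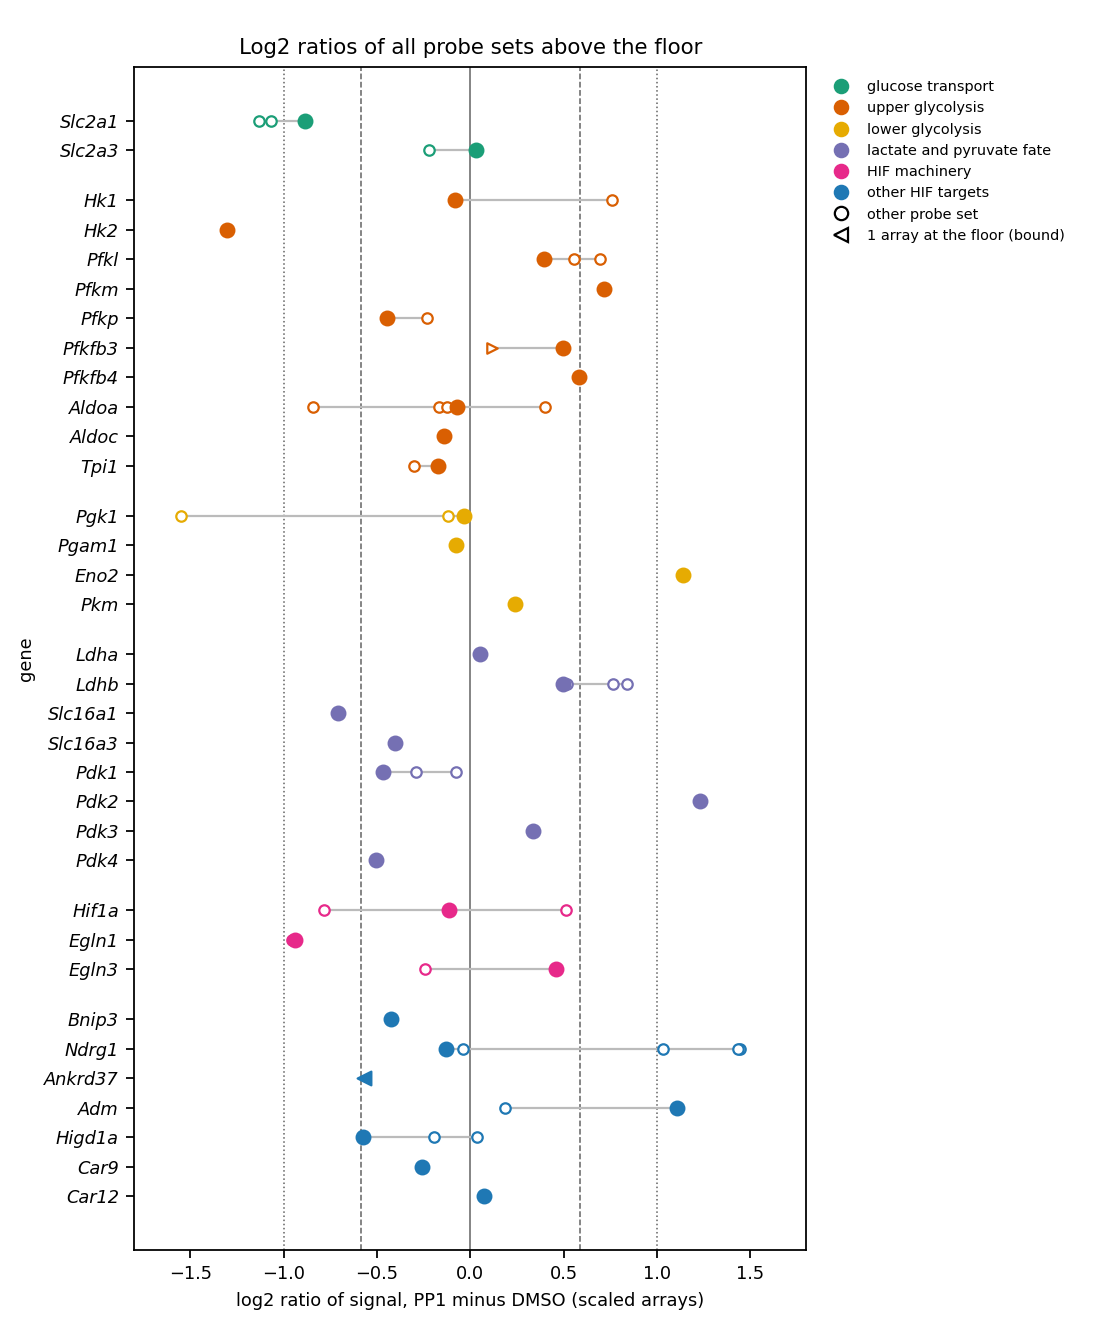
Log2 ratio of signal, PP1 minus DMSO (x axis), for each gene (y axis), grouped by role; filled symbols are the brightest probe set, open symbols the others above the floor, triangles those with 1 array at the floor, dashed lines 1.5-fold and dotted lines 2-fold. All 3 probe sets of Slc2a1, both of Egln1 and all 4 of Ldhb lie on 1 side, whereas those of Ndrg1 spread from -0.13 to 1.45.

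Lactate dehydrogenase joins H-type and M-type subunits. Ldha, the subunit linked to lactate production, stood at 4284 and 4443, a log2 ratio of 0.05. Ldhb, linked to lactate use, was higher with PP1 by all 4 probe sets. Its brightest gave 693 and 979.6 and its others 589 and 842.0, 529.6 and 948, and 502 and 853, with log2 ratios from 0.50 to 0.84. The brightest and the one at 0.84 have names that mark shared probes. Both listed transporters that move lactate across the plasma membrane were lower. Slc16a1 (MCT1) stood at 491 and 300.1, or 1.64-fold lower, and Slc16a3 (MCT4), a known HIF target that favours export, at 346 and 261, a log2 ratio of -0.40. Each rested on 1 probe set above the floor.

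Pyruvate dehydrogenase kinases switch off the complex that sends pyruvate into the mitochondrion, and the 4 forms went both ways. Pdk1, the form known as a HIF target, was lower by all 3 probe sets above the floor, from -0.47 to -0.08, with 738 and 533 by the brightest. Pdk4, the starvation-induced form, was at -0.51 from dim signals of 87.2 and 61.4. Pdk3 was at 0.34, with 564.5 and 712. Pdk2 had the highest ratio of the 34 genes, 2.34-fold, but from signals of 61.5 and 144, close to the floor on the DMSO array. Only 180 measured genes had a higher ratio than Pdk2. Over all measured genes, 10.6% were at least 1.5-fold higher and 7.37% lower. Of 8 measured genes for pyruvate entry and oxidation, 5 were below 0 (median -0.17), as were 5936 of all 12111 measured genes. By the brightest probe sets, the 2 that were at least 1.5-fold different were the phosphatases that switch the complex back on. Pdp1 was at 0.70, with 368.5 and 600.4 (0.26 by its other probe set), and Pdp2 at 0.71, with 60.4 and 99.0. The acetyltransferase Dlat (-0.48) and the dehydrogenase Dld (-0.37) had the next largest ratios by the brightest probe sets. Pdha1, also of this list, was at 0.10 by its brightest probe set and 0.81 by its other.

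Within the oxygen-sensing machinery, Hif1a encodes the regulated HIF subunit, whose control is mainly at the level of the protein, which arrays do not measure. Its brightest probe set gave 3168 and 2930, a log2 ratio of -0.11, and its others -0.79 (528 against 306.5) and 0.51 (400.1 against 570), so its direction depends on the probe set. Egln1 (PHD2), the main oxygen sensor and itself a HIF target, was lower by both probe sets, which gave 1147 against 597.5 and 895 against 462. It was 1.92-fold lower by the brightest, with log2 ratios of -0.95 and -0.94. Egln3 (PHD3) was at 0.46 by its brightest probe set (75.1 against 103) and -0.24 by the other (53.6 against 45.3), both dim. The 6 further genes for HIF subunits and oxygen sensing all lay within 1.5-fold by their brightest probe sets (median -0.05), as did 82.0% of all measured genes. Arnt, the constitutive partner, was at 0.20, the asparaginyl hydroxylase Hif1an at -0.17, the ubiquitin ligase subunit Vhl at -0.12 (1.47 by its other probe set) and Epas1, the alternative HIF subunit, at -0.09.

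Among the other HIF targets, Adm encodes adrenomedullin, a vasodilator peptide. Its brightest probe set gave 524 with DMSO and 1130 with PP1, or 2.16-fold higher. Its second, with a name that marks shared probes, gave 641.5 and 730.5, a log2 ratio of 0.19. Ndrg1, a stress-responsive gene of differentiation, likewise depended on the probe set. Its 2 brightest probe sets gave 771 against 704.5 and 679 against 661, while the dimmer 3 gave 240.1 against 491, 116 against 315 and 58.9 against 159. The latter had log2 ratios from 1.03 to 1.45, against -0.13 and -0.04 for the former. Without probe sets marked as shared, Ndrg1 stood at 1.03 in place of -0.13.

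Bnip3 and Higd1a, which encode mitochondrial proteins, were below 0 by their brightest probe sets. Bnip3, a receptor for mitochondrial autophagy, stood at 1729 and 1286 (-0.43). Higd1a, a respiratory chain factor, stood at 2403 and 1614 (-0.57, or 1.49-fold lower), though its 2 dimmer probe sets gave -0.20 and 0.04. Ankrd37, a small HIF target, had a signal of 47.1 with DMSO and lay under the floor with PP1, so it was at least 1.48-fold lower, a bound that rests on a dim signal. The carbonic anhydrases, which handle acid outside the cell, lay near 0, with Car9 at 94.3 and 78.8 (-0.26) and Car12 at 50.9 and 53.5 (0.07). Bnip3l has no value of its own, and the 3 probe sets that it shares with its pseudogene gave log2 ratios from -0.05 to 0.22.

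Set side by side, the 16 measured glycolytic enzymes had a median log2 ratio of 0.01, with 8 above 0 and 8 below, and 2 at least 1.5-fold higher against 1 lower. These enzymes include Pfkfb3, Pfkfb4, Ldha and Ldhb. The 10 measured genes of the HIF machinery (Hif1a, Egln1 and Egln3) and its other targets had a median of -0.20. Of these genes 3 were above 0 and 7 below, and 1 was at least 1.5-fold different in each direction. Over all measured genes, 51.0% were above 0, 10.6% were at least 1.5-fold higher and 7.37% lower. The medians differed by 0.20, and with 1 array per group that difference was not tested. The 22 further measured HIF targets described below, which are in neither list, had a median of 0.02. Many glycolytic enzymes are HIF targets themselves, so the lists are split by role and not by regulator.

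**Figure D3:**
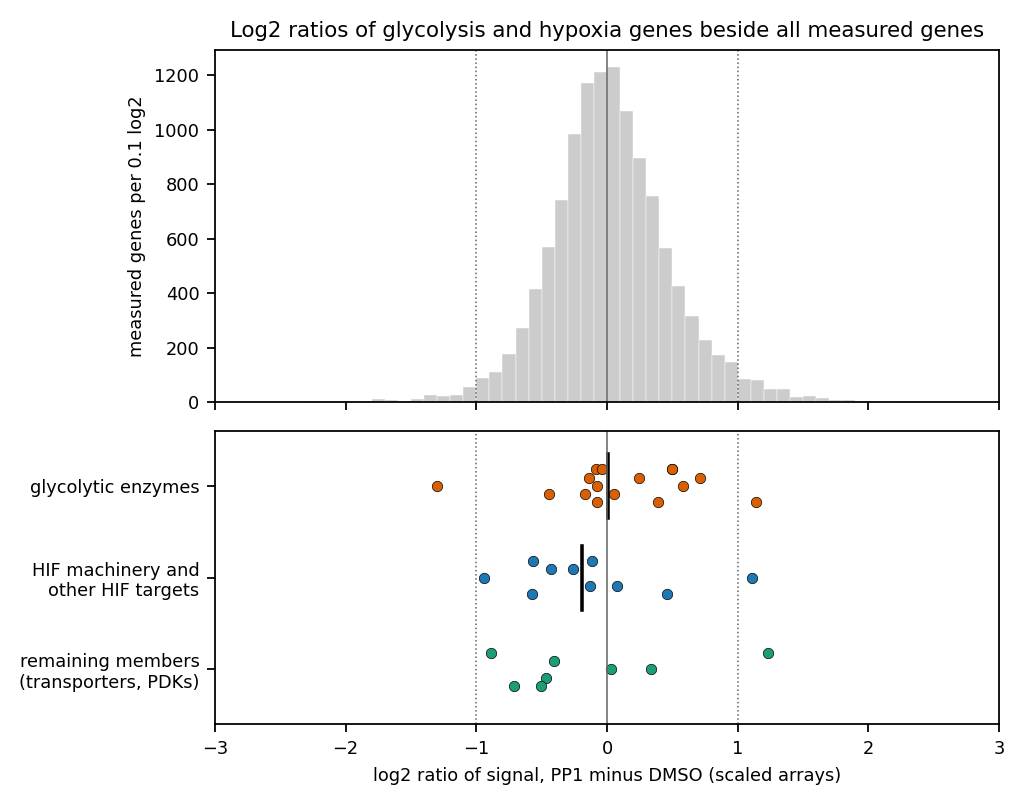
Top, the number of measured genes per 0.1 of log2 ratio (PP1 minus DMSO, x axis) over all 12111 genes, those beyond 3 in either direction drawn in the end bins; bottom, the log2 ratio of each gene described here, with glycolytic enzymes, HIF machinery with other HIF targets, and the remaining transporters and kinases on separate rows, points spread vertically for legibility and a bar at the median of the first 2 rows. The bars stand at 0.01 and -0.20, each row spans both sides of 0, and dotted lines mark 2-fold.

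The share of genes past 1.5-fold was also read by signal range. Of the 8 genes with a mean signal above 1600, which are Aldoa, Tpi1, Pgk1, Pgam1, Pkm, Ldha, Hif1a and Higd1a, 0 were past 1.5-fold in either direction, against 9.15% of the 754 measured genes in that range. Between 400 and 1600 it was 3 of 10 (Slc2a1, Egln1 and Adm), against 13.6% of 3043 genes. Between 100 and 400 it was 4 of 10 (Hk2, Pfkm, Eno2 and Slc16a1), against 18.2% of 4827, and under 100 it was 1 of 6 (Pdk2), against 23.3% of 3487. The signal of a probe set also depends on its probes and does not rank the genes by transcript level.

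Other genes of these pathways were mostly near the bulk by their brightest probe sets. Of 11 further measured glycolysis genes, 6 were above 0 (median 0.03), and Bpgm, which makes 2,3-bisphosphoglycerate, was the 1 gene past 2-fold. Over all measured genes, 51.0% were above 0, 2.97% were at least 2-fold higher and 1.55% lower. Bpgm stood at 190 and 92.2 by its brightest probe set (-1.04), but its 3 probe sets ran up to 0.48. Galm (0.44), Pfkfb2 (0.41) and Pgam2 (0.38) followed. Another probe set of Galm was at 0.89, and Gpd1l was at 0.27 by its brightest and 0.99 by its other. In the pentose phosphate pathway, which branches off after hexokinase, 5 of 6 measured genes were below 0 (median -0.18). Pgd, its second dehydrogenase, was 1.52-fold lower at 1956 and 1287, although its 4 probe sets ran from -0.63 to 0.17. The transketolase Tkt was lower by both probe sets above the floor (-0.47 and -0.13). Pgls was at -0.29, and the epimerase Rpe was at 0.47 by the brightest and -0.40 by the other.

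Of 22 further measured HIF targets, 12 were above 0 and 10 below (median 0.02), beside 51.0% of all measured genes above 0. By the brightest probe sets 0 were at least 1.5-fold higher and 1 lower, against 10.6% and 7.37% of all measured genes. Other probe sets above the floor reached 1.90 for Cited2, 1.77 for P4ha1, 0.73 for Tfrc and 0.66 for Mxi1, and -1.13 for Stc2, all named after their values were seen. The 1 lower gene was Ak4, a mitochondrial adenylate kinase, at 297.5 and 147, with both of its probe sets above the floor near -1 (-1.10 and -1.02). Vegfa, the growth factor of blood vessels, was at -0.56 by its brightest probe set (564 against 382) and 0.21 by the other. Fam162a, at 2905 and 2136, was at -0.44, and Vldlr, a lipoprotein receptor, at -0.43, with 6 probe sets from -0.53 to 0.46.

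**Figure D4:**
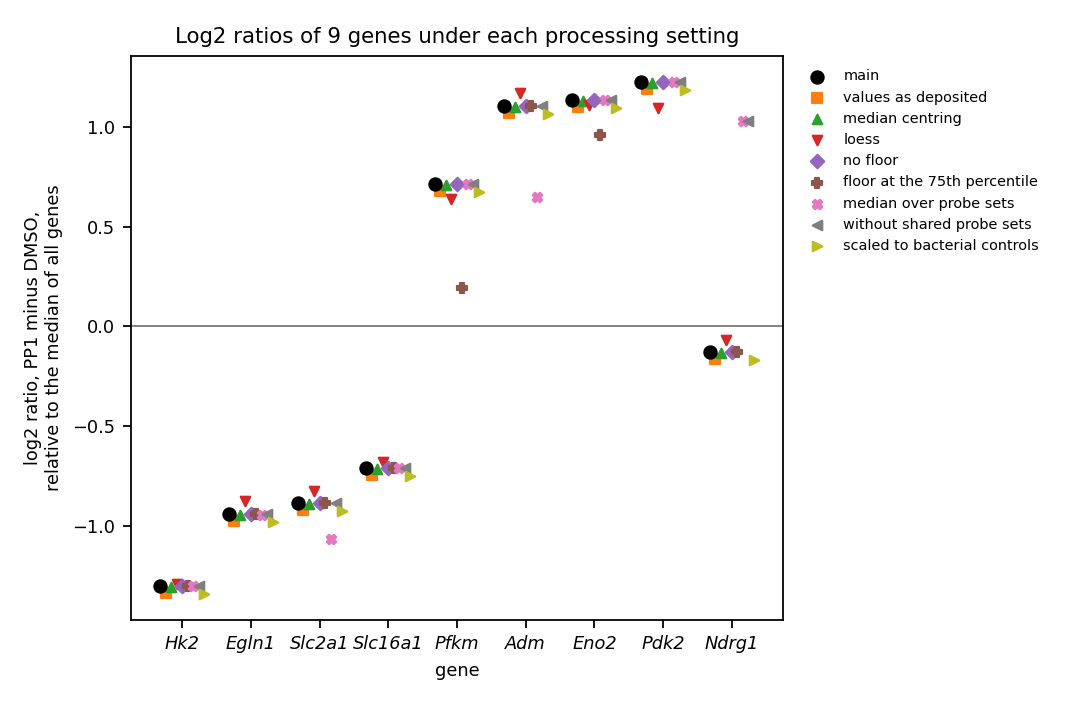
Log2 ratio, PP1 minus DMSO (y axis), of the 8 genes past 1.5-fold and of Ndrg1 (x axis) under the main setting (black circles) and each alternative (other symbols); for the unscaled, median-centred and control-scaled settings, each ratio is given relative to a common median of all genes, that of the main setting. The ratios of Hk2 lie between -1.34 and -1.29 in every setting drawn, Pfkm drops to 0.19 with the higher floor, and Ndrg1 jumps from -0.13 to 1.03 when shared probe sets are left out. Hk2 has 1 probe set, not shared and above every floor. Beside the recentred scalings, loess alone could therefore move it freely. Not recentred, Hk2 was at -2.05 as deposited, -1.48 centred on array medians and -2.145 with bacterial controls.

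As to the cells, 6 of 10 osteoblast markers were measured, 3 above 0 and 3 below. Col1a1 (7558 and 9931), Sparc (8747 and 11867) and Alpl (187.5 and 242) were above 0, Bmp1 (716 and 601) and Sp7 (71.6 and 53.3) were below, and Ibsp (159 and 37.7) was 4.22-fold lower, while Bglap, Bglap2, Runx2 and Spp1 were not named here. All 7 macrophage markers were measured too, with a summed signal of 13532 with DMSO and 16221 with PP1 and log2 ratios from -0.01 (Cd14) to 1.11 (Mrc1). Macrophages also express glycolytic genes, and their part in the values above was not tested. Osteocyte markers (4 of 4) and the 2 named red blood cell markers were under the floor on both arrays, and of 4 endothelial markers Pecam1 was, with a summed signal for the list of 94.5 and 135. RNA quality was read from control probe sets at either end of a transcript: the 3′ over 5′ log2 ratio on the PP1 array minus that on the DMSO array was -0.51 for Gapdh, -0.34 for Pcx and 0.14 for Actb. Its part in single ratios was not tested.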

How the data were processed

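Expression was measured on 2 Affymetrix mouse arrays, 1 per condition, from Trizol-extracted total RNA turned into biotinylated cRNA, per the labels' protocols. The deposited values are 1 linear signal intensity per probe set (45101 in all, of which 64 are controls). Per the submitters' processing notes the tool was MAS5; neither its version nor a scaling target is given in the sources used here. Probe sets with 1 annotated gene (34945) took their names from the platform annotation, and gene identifiers were looked up in RefSeq (GRCm38.p6) for current symbols. Those with several genes entered no gene value.

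The PP1 array was scaled to the DMSO array by the mean trimmed by 2% at each end (158.1 on DMSO, 94.1 on PP1 as deposited). Signals under the floor of 31.7 were set to it before log2. A gene takes its probe set of highest mean log2 signal and counts as measured if that exceeds the floor on at least 1 array (12111 of 18193 genes). Where only 1 array exceeded the floor, the ratio is a bound. With 1 array per group there is no p-value, and the number of arrays limits the precision. The genes, lists and fold thresholds were chosen with earlier results of these data known. Every listed gene with a probe set is named, and of the further lists up to 4 genes by size of the log2 ratio. Some others are named because another probe set lay far from 0, seen afterwards. Alternatives were the scaling (none, array medians, loess with a span of 0.3), the floor (none, 75th percentile), the median over probe sets, leaving out shared probe sets, and a 3-fold threshold. Scaling to 18 bacterial control probe sets was chosen after seeing the data. The steps were tested on simulated data. The work used Python 3.11.15, numpy 2.4.6, pandas 2.3.3, scipy 1.17.1, statsmodels 0.14.6 and matplotlib 3.10.9.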

Additional observations from a re-analysis of the deposited data

Results flagged for a closer look

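Probe sets outside the gene-level values gave signals that were higher on the PP1 array than on the DMSO array by more than the SD of 0.41 between probe sets. Gapdh, the glycolytic dehydrogenase between aldolase and phosphoglycerate kinase, is named alone only by the array's own control probe sets. Its 5′ control probe set stood at a log2 ratio of 0.86 (3119 against 5653) and its middle one at 0.68 (3943 against 6324). The 3′ one, at 0.35 (5067 against 6438), did not pass that limit. The gap between the 5′ and the 3′ value is the -0.51 by which the 3′ over 5′ log2 ratio of Gapdh, a sign of RNA quality, differed between the arrays, and its part in the higher signals was not tested. A probe set annotated to Gapdh with 4 further genes stood at 0.53 (5802 against 8349), whereas those shared with 1 pseudogene were dim and lower, at -0.83 and -0.17. A probe set annotated to Hk1 together with the ribosomal protein gene Rpl17 and its copies stood at 0.47 (4910 against 6782), and which transcript it reports cannot be told from its annotation.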

How the results depend on the processing

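Under the 3 other scalings by 1 factor (none, array medians, bacterial controls), medians and ratios were recentred on the main median of all genes, so they could move only through the floor and the genes it kept. Over all 8 alternatives the median of the glycolytic enzymes ran from -0.04 to 0.15, that of the HIF genes from -0.28 to -0.15, and their difference from 0.14 to 0.30. Not recentred, Pfkm changed sign, to -0.04 as deposited and -0.13 with bacterial controls, and the other 7 genes past 1.5-fold kept theirs. Eno2, Pdk2 and Adm fell to 0.39, 0.48 and 0.36 as deposited, and to 0.30, 0.39 and 0.27 with bacterial controls. All these values lie within 1.5-fold. Hk2, Egln1, Slc2a1 and Slc16a1 lay further below 0, from -2.05 to -1.46 as deposited. Under the 5 alternatives that were not recentred, 154 of 160 ratios of single genes moved by less than the probe set SD of 0.41. The exceptions were Hk1 (0.34), Adm (0.65) and Ndrg1 (1.03) by the median over probe sets, Ndrg1 without shared probe sets (1.03), Pfkm with the floor at the 75th percentile (0.19) and Ankrd37 without a floor (-0.99). Many of the 160 ratios could not move. Leaving out the floor can change only a gene with a signal under it, here Ankrd37. A median over probe sets cannot change the 17 genes with 1 probe set above the floor. Leaving out shared probe sets changes only genes whose brightest one is shared. The 154 is therefore no measure of how stable the ratios are. The counts depended on the scaling. With the values as deposited, 0 genes were at least 2-fold higher and 11 lower, and at 1.5-fold 0 were higher and 23 lower. Scaled to bacterial controls, these counts were 0 and 12, and 0 and 24. Under these settings the median log2 ratio of all measured genes shifted by -0.71 and -0.80, in the same order. Centred on array medians, 1 was at least 2-fold higher and 3 lower, and 10 were at least 1.5-fold lower. Over all measured genes, 50 of 12291 were at least 2-fold higher and 2877 lower as deposited. With bacterial controls it was 35 and 3774 of 12351, and with array medians 223 and 351 of 12100. With the floor at the 75th percentile, where 26 genes were measured, 1 was at least 2-fold higher and 2 at least 1.5-fold higher. Over all genes measured with that floor, 111 of 7526 were at least 2-fold higher. By the median over probe sets 2 were at least 2-fold lower, against 144 of all 12111 measured genes. At a 3-fold threshold 0 were higher and 0 lower. The shares of all measured genes past 1.5-fold under these alternatives, and past 3-fold, were not counted. Those counts therefore have no background to be read against. No paired analysis was possible because each group is 1 array. Dim signals limit Pdk2, Egln3, Ankrd37, Pdk4, Car9 and Car12, which lie nearest the floor.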
